A study of Mus musculus with 4 samples.

Results

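FoxO1 signal on chromatin was examined at 10 mouse genes that restrain cell division and that FoxO factors are known to act on: Cdkn1a, Cdkn1b, Cdkn1c, Cdkn2c, Cdkn2d, Rb1, Rbl2, Gadd45a, Gadd45g and Ccng2. Every region that the authors' merged table assigned to one of these symbols was taken, whatever its signal, which gave 21 of the 16126 regions in the table. The 21 regions belonged to 9 of the 10 genes, and Cdkn2d had none. Of all 21900 RefSeq protein-coding symbols, 44% had a region. Hearts came from male wild type C57BL/6 mice aged 12 weeks, 7 days after the start of each procedure. The TAC group underwent transverse aortic constriction, a narrowing of the aorta that loads the heart with pressure. The Iso group was injected under the skin with the beta-adrenergic agonist isoproterenol at 3 mg/kg per day. The Veh/Sham group received vehicle injections together with a sham operation, so 1 control served both routes. Each condition was 1 pool of 3 whole hearts and 1 anti-FoxO1 chromatin immunoprecipitation library (ChIP-seq). As there was 1 library per condition, no replicate spread existed and no test was made, and every contrast given is between 2 libraries. A whole heart holds many cell types, so a shift in cell makeup and a shift in FoxO1 signal per cell cannot be told apart.

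FoxO factors are forkhead proteins that Akt phosphorylates and sends out of the nucleus when insulin or growth factors are present. When they stay in the nucleus, they are known to bind forkhead elements in genes that hold cells in or near G1. The gene products act at successive points. The Cip/Kip proteins bind cyclin and kinase together, the INK4 proteins block CDK4 and CDK6, the pocket proteins hold E2F factors in check, and the Gadd45 proteins and cyclin G2 belong to stress-linked arrest. Most cardiac muscle cells of the adult mouse have left the cycle and enlarge without dividing, while fibroblasts and endothelial cells of the heart can still divide.

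Promoter sequences are shown first for genes on which the results turn: Ccng2, Cdkn1b, Cdkn1a and Rbl2, whose windows lay under FoxO1 regions, and Cdkn2d, which had no region. They are RefSeq windows of GRCm38.p6 that run from 250 bases before a start site to 50 after it, 5′ to 3′ on the strand of the gene. Capitals mark the forkhead letters searched on both strands.
Ccng2 (chr5:93267323-93267622, plus strand): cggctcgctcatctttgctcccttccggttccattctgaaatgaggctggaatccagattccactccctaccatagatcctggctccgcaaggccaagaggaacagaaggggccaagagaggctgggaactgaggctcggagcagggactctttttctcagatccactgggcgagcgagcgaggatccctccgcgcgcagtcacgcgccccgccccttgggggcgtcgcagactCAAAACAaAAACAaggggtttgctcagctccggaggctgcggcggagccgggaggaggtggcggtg
Cdkn1b (chr6:134920151-134920450, plus strand): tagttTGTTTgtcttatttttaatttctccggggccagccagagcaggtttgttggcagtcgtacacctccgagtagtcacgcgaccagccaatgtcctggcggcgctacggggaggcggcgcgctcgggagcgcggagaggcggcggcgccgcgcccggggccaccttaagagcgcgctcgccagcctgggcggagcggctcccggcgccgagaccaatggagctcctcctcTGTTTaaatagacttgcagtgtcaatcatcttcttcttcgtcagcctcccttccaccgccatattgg
Cdkn1a, downstream start (chr17:29093519-29093818, plus strand): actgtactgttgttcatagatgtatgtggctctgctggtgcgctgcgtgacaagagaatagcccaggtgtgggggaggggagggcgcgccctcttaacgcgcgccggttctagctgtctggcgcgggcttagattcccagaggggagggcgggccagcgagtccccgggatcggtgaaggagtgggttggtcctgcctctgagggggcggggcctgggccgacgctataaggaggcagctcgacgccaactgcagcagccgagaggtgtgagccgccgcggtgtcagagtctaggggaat
Rbl2 (chr8:91069807-91070106, plus strand): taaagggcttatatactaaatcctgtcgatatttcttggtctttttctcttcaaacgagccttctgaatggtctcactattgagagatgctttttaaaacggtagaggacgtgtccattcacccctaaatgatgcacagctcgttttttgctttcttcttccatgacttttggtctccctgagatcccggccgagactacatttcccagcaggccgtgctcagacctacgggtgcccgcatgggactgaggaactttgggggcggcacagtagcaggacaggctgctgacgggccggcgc
Cdkn2d (chr9:21291160-21291459, minus strand): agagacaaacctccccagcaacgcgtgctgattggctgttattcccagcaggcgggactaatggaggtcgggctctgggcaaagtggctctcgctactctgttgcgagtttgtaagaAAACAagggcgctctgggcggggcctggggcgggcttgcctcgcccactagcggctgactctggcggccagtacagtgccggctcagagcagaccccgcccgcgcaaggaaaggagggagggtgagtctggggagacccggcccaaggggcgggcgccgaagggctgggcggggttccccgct
The letters searched were GTAAACA, a forkhead core, CAAAACA, the core of an insulin response sequence, and AAACA, which both longer strings contain. Windows existed for 8 of the 10 genes, 10 windows in all, because Cdkn1a and Cdkn2c had 2 start sites each; Cdkn1c and Rb1 were not matched. GTAAACA was in 0 of the 10 windows, against 3.65% of all 32851 promoter windows. CAAAACA was in 1, that of Ccng2, against 6.28%. AAACA was in 3, those of Ccng2, Cdkn1b and Cdkn2d, against 50.5%. In Ccng2 the 2 matches to AAACA stood 14 and 8 bases before the start site, and the first was the end of the CAAAACA match. In Cdkn1b the reverse complement of AAACA stood 245 and 17 bases before the start. Of all promoter windows that overlapped a merged region, 35.2% held AAACA, and of those that overlapped none, 55.4% did. A match is a description of letters in these windows and not of a bound site.

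The cell cycle inhibitor genes carried FoxO1 regions mostly at CpG islands. Of the 21 regions, 17 overlapped a CpG island, against 54.1% of all regions. Their median length was 455 bp, against 409 bp. The centre of 7 regions lay within 1000 bp of the start site that the deposited table used for the member, 1 each at Cdkn1b, Cdkn1c, Rb1, Rbl2, Gadd45a, Gadd45g and Ccng2. Counting any listed start site, 9 of the 21 lay within 1000 bp of one, against 54.0% of all regions. For 5 regions the nearest listed start site belonged to another gene, and 9 regions were shared with another gene in all. Cdkn1b had the widest coverage, with 4 regions of 3744 bp together, followed by Gadd45g with 3 regions of 2416 bp and Cdkn1a with 2 regions of 2075 bp. The authors called an interval at 13 of the 21 regions in TAC (45.0% of all regions), at 10 in Iso (36.0%) and at 12 in Veh/Sham (49.1%). At 8 regions, a call was made in each of the 3 libraries (22.1% of all regions), and 4 regions were called in none of them (30.5%).

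**Figure D1:**
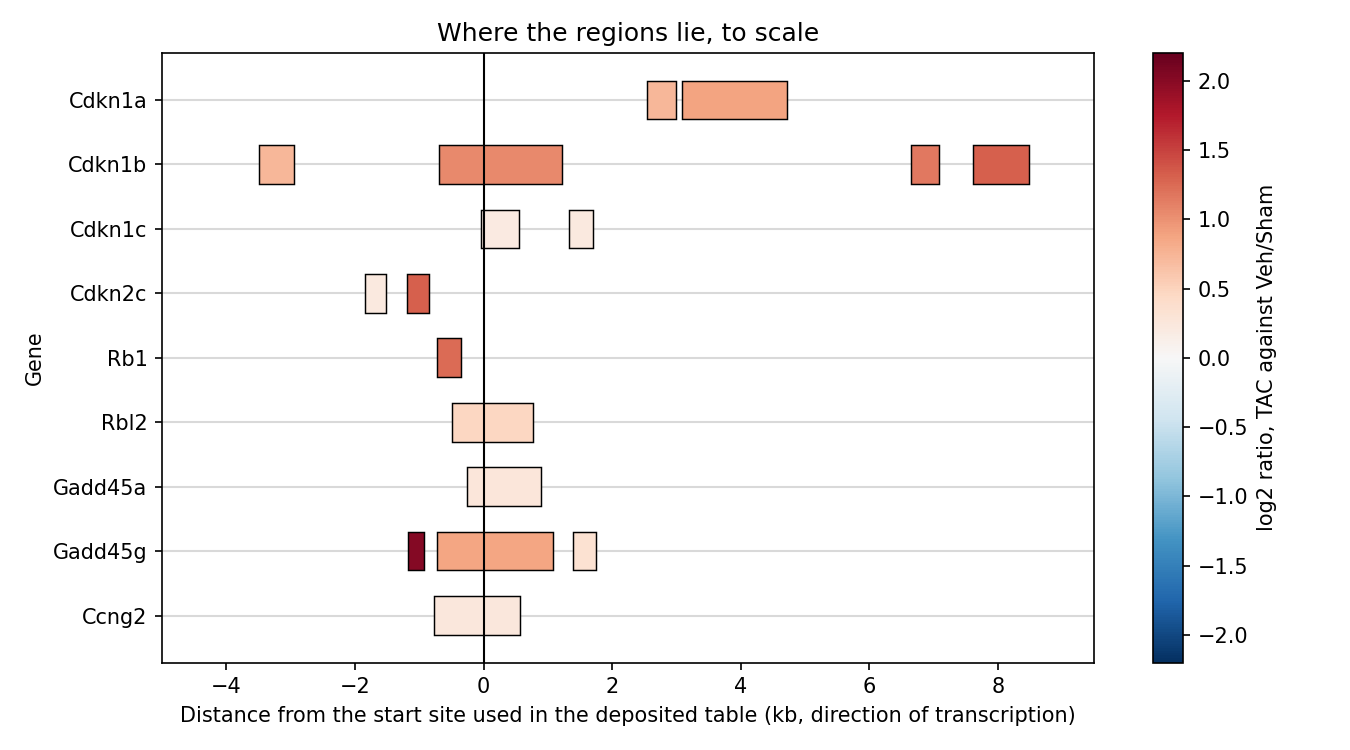
Position of 17 of the 21 regions on a scale of distance from the start site in the deposited table (kb, horizontal axis, positive in the direction of transcription) for each gene (rows), with bar length to scale and colour giving the log2 ratio of TAC against Veh/Sham. The 3 Rb1 regions inside the gene and the Rbl2 region 63858 bp away lie outside the range drawn; the darkest bar is the upstream Gadd45g region at 2.01.

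Values are the authors' mean signal over a region, a mean fragment depth that can be set side by side between regions of different length, and the peak signal, the highest depth in the region. Over all regions the median of the mean signal was 14.0 in TAC, 11 in Iso and 8.71 in Veh/Sham, so a shared difference between libraries underlies every ratio. How the libraries were scaled to each other is not stated, and ratios are therefore also read against the median of all regions. Peak depths carry exact 95% counting intervals (Poisson for a depth, Clopper-Pearson for a ratio). These cover counting error only: no molecular identifiers are recorded, so copies of 1 molecule may be counted, and the depth used is the maximum along the region.

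Rbl2 held the highest signal of the 10 genes in all 3 libraries. It encodes p130, the pocket protein that represses E2F targets in resting cells. The region over its start site (chromosome 8, 91069598 to 91070860, 135 bp from the start) read 31.75 in TAC, 27.25 in Iso and 22.7 in Veh/Sham, above 98.2%, 97.47% and 97.45% of all regions of the same library. Peak depths there were 63 in TAC, 65 in Iso and 62 in Veh/Sham, close to equal. The TAC to Veh/Sham ratio of these depths was 1.02 (0.70 to 1.47) and that of Iso to Veh/Sham 1.05 (0.73 to 1.51). The mean signal gave a log2 ratio of 0.47 for TAC against Veh/Sham and 0.25 for Iso against Veh/Sham, each below the median of all regions. The second region assigned to Rbl2 lay beyond the end of the gene, 63858 bp from its start. This region lay inside Aktip, 1544 bp from the start of that gene, and was called in none of the 3 libraries. It read 13.4 in TAC, 11.6 in Iso and 11 in Veh/Sham.

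Rb1, the founding pocket protein, had 4 regions, and no 2 of them ranked the libraries in the same order. The promoter region (chromosome 14, 73326148 to 73326517, 541 bp upstream) read 17.6 in TAC, 6.18 in Iso and 6.82 in Veh/Sham. It stood out in TAC alone and was called only there. Its peak depths were 29 in TAC, 10 in Iso and 9 in Veh/Sham, and the TAC to Veh/Sham ratio was 3.22 (1.49 to 7.74). This was the 1 region of the 21 whose interval for that ratio lay wholly above 1.43, the ratio of the whole-table sums of peak depth; 4.66% of all regions did so. A region inside the gene, 72099 bp from the start (73253548 to 73253836, no CpG island), had the reverse order of the treatments, with 10.9 in TAC, 22.9 in Iso and 6.44 in Veh/Sham. It was called in Iso alone, and its peak depths of 29 in Iso and 9 in Veh/Sham gave a ratio of 3.22 (1.49 to 7.74). The other two Rb1 regions were also assigned to Lpar6, a lysophosphatidic acid receptor gene nested in Rb1. One (73231530 to 73231861, 6196 bp upstream of Lpar6) read 19.8 in TAC, 15.6 in Iso and 6.50 in Veh/Sham, high in both hypertrophy libraries. The other (73237784 to 73238134, 68 bp from the Lpar6 start) read 7.46 in TAC, 11.2 in Iso and 10.8 in Veh/Sham, and was called in Veh/Sham alone. It was the only region of the 21 with less mean signal in TAC than in Veh/Sham, against 16.6% of all regions, although its peak depths of 14 in TAC and 13 in Veh/Sham gave a ratio above 1 (1.08, 0.47 to 2.49).

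Cdkn1a encodes p21, the Cip/Kip inhibitor best known as a target of p53. Its 2 regions lay beside each other inside the gene, 2768 and 3902 bp from the start site of the deposited table. RefSeq lists a second start site at 29093769 on chromosome 17, 14 bp from the centre of the nearer region (29093527 to 29093982), and that region covered 291 of the 300 bases of the Cdkn1a window printed above. It read 17.1 in TAC, 9.57 in Iso and 9.86 in Veh/Sham. The longer region (29094078 to 29095698), called in every library, read 24.4 in TAC, 13.7 in Iso and 12.8 in Veh/Sham. Both regions were thus highest in TAC and nearly level between Iso and Veh/Sham. At the longer region, peak depths were 38 in TAC and 23 in both Iso and Veh/Sham, with a TAC to Veh/Sham ratio of 1.65 (0.96 to 2.90) and an Iso to Veh/Sham ratio of 1 (0.54 to 1.87). Its log2 ratio of mean signal for TAC against Veh/Sham was 0.88, which is 0.29 above the median of all regions.

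Cdkn1b encodes p27, the Cip/Kip inhibitor most often linked to FoxO activity, and all 4 of its regions had more mean signal in TAC than in Veh/Sham. The region over its start site (chromosome 6, 134919714 to 134921616), which holds the Cdkn1b window printed above, read 21.9 in TAC, 8.93 in Iso and 9.95 in Veh/Sham, with peak depths of 33, 17 and 23 in that order of libraries. TAC was high and Iso slightly below Veh/Sham; the log2 ratio of mean signal was 1.06 for TAC against Veh/Sham, -0.14 for Iso against Veh/Sham and 1.20 between TAC and Iso. The interval of the TAC to Veh/Sham peak ratio held 1 (1.43, 0.82 to 2.56), and that of TAC to Iso did not (1.94, 1.05 to 3.72). Upstream by 3224 bp, a region without a CpG island (134916903 to 134917451) read 16.1 in TAC, 15.7 in Iso and 9.33 in Veh/Sham, so here Iso stood with TAC. Beyond the gene, 2 regions lay nearer to the start site of the transcript 1190002F15Rik, at 1827 and 642 bp from it. The stronger (134928016 to 134928885) read 25.5 in TAC, 13.7 in Iso and 9.70 in Veh/Sham, the highest TAC signal among the Cdkn1b regions. Its peak depths of 39 in TAC and 19 in Veh/Sham gave a ratio of 2.05 (1.16 to 3.76). The weaker (134927053 to 134927478) was called in none of the 3 libraries. It read 15.3 in TAC, 3.69 in Iso and 6.31 in Veh/Sham. Its TAC to Iso ratio of peak depths, 20 against 5, was 4 (1.46 to 13.6), the largest such ratio of the 21.

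Cdkn1c encodes p57, the imprinted member of the Cip/Kip family, and its 2 regions differed little between TAC and Veh/Sham. The region at the start site (chromosome 7, 143460503 to 143461096) read 15.4 in TAC, 11.4 in Iso and 13.3 in Veh/Sham and was called in Veh/Sham alone. Peak depths were 20 in TAC and 17 in both Iso and Veh/Sham, and the TAC to Veh/Sham ratio was 1.18 (0.59 to 2.39). The region 1514 bp into the gene (143459350 to 143459722) was called in none of the 3 libraries. It read 9.83 in TAC, 3.50 in Iso and 8.33 in Veh/Sham. Its Iso to Veh/Sham log2 ratio of -1.05 was the lowest of the 21, but it rested on peak depths of 6 and 13 (ratio 0.46, 0.14 to 1.30).

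Of the INK4 genes, Cdkn2c (p18) had a pair of small regions and Cdkn2d (p19) had no region. The 2 Cdkn2c regions lay either side of a RefSeq start site at 109666756 on chromosome 4, with centres 370 bp after it and 292 bp before it. The deposited table measures them from another start, as 1014 and 1676 bp upstream. The region after this start (109666216 to 109666557) read 16.4 in TAC, 4.60 in Iso and 6.00 in Veh/Sham and was called in TAC alone. Its peak depths of 22 in TAC and 9 in Veh/Sham gave a ratio of 2.44 (1.08 to 6.03), and TAC to Iso gave 3.14 (1.30 to 8.71). The region before this start (109666885 to 109667212) was nearly flat, with 13.9 in TAC, 11.4 in Iso and 11.8 in Veh/Sham, and was called in Veh/Sham alone. Both regions read highest in TAC and lowest in Iso, and they differed in the size of the gaps and in their calls.

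Gadd45g had 3 adjoining regions across its CpG island, and Gadd45a had 1; both encode small proteins of growth arrest and DNA damage that bind stress kinases and p21. The upstream Gadd45g region (chromosome 13, 51845494 to 51845755, 1051 bp from the start) read 18.0 in TAC, 8.12 in Iso and 3.71 in Veh/Sham, and was called in TAC alone. Its TAC to Veh/Sham log2 ratio, 2.01, was the highest of the 21 regions and above 97.21% of all regions. It rested on the lowest Veh/Sham signal of the 21, and its peak depths of 20 and 8 gave a ratio of 2.50 (1.05 to 6.56). The long region over the start site (51845952 to 51847748) read 19.1 in TAC, 12.9 in Iso and 9.95 in Veh/Sham. Peak depths there ordered the treatments the other way, with 34 in TAC, 37 in Iso and 15 in Veh/Sham. The ratio to Veh/Sham was 2.27 for TAC (1.20 to 4.48) and 2.47 for Iso (1.32 to 4.84), and the Iso interval lay wholly above 1.27, the Iso to Veh/Sham ratio of the whole-table sums. That was so at 2 of the 21 regions, this one and Rb1 at 72099 bp, and at 3.90% of all regions. The third region (51848059 to 51848418) was called in none of the 3 libraries. It read 12.5 in TAC, 8.25 in Iso and 9.67 in Veh/Sham.

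Gadd45a (chromosome 6, 67036510 to 67037658, 323 bp from the start) was 1 of the 3 regions with more mean signal in Iso than in TAC, with 13.6 in TAC, 16.25 in Iso and 11.2 in Veh/Sham. Peak depths were 25 in TAC, 36 in Iso and 17 in Veh/Sham. The Iso to Veh/Sham ratio of depths was 2.12 (1.16 to 4.02) and that of TAC to Veh/Sham 1.47 (0.76 to 2.90). The region also covered the start of the noncoding transcript E230016M11Rik, 485 bp from its centre, so the signal cannot be given to 1 of the 2 genes.

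Ccng2 encodes cyclin G2, an unusual cyclin that rises in arrested cells and is a classical FoxO target. Its single region (chromosome 5, 93266797 to 93268145) spans the start site and the whole Ccng2 window printed above, which holds the CAAAACA letters. It read 20.1 in TAC, 15.5 in Iso and 16.8 in Veh/Sham, the second highest Veh/Sham signal of the 21 after Rbl2. Its rank among all regions was lower in the hypertrophy libraries, above 83.18% of regions in TAC, 75.93% in Iso and 93.42% in Veh/Sham. Peak depths were 44 in TAC, 33 in Iso and 37 in Veh/Sham. The TAC to Veh/Sham ratio of these depths was 1.19 (0.75 to 1.89) and that of Iso to Veh/Sham 0.89 (0.54 to 1.47). Peak depth was lower at Ccng2 than at the Rbl2 start region in every library. In TAC the counting intervals were 32.0 to 59.1 for Ccng2 and 48.4 to 80.6 for Rbl2. They were 22.7 to 46.3 and 50.2 to 82.8 in Iso, and 26.1 to 51.0 and 47.5 to 79.5 in Veh/Sham. Overlap of such intervals does not decide whether depths differ, and a ratio between the genes was not computed.

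**Figure D2:**
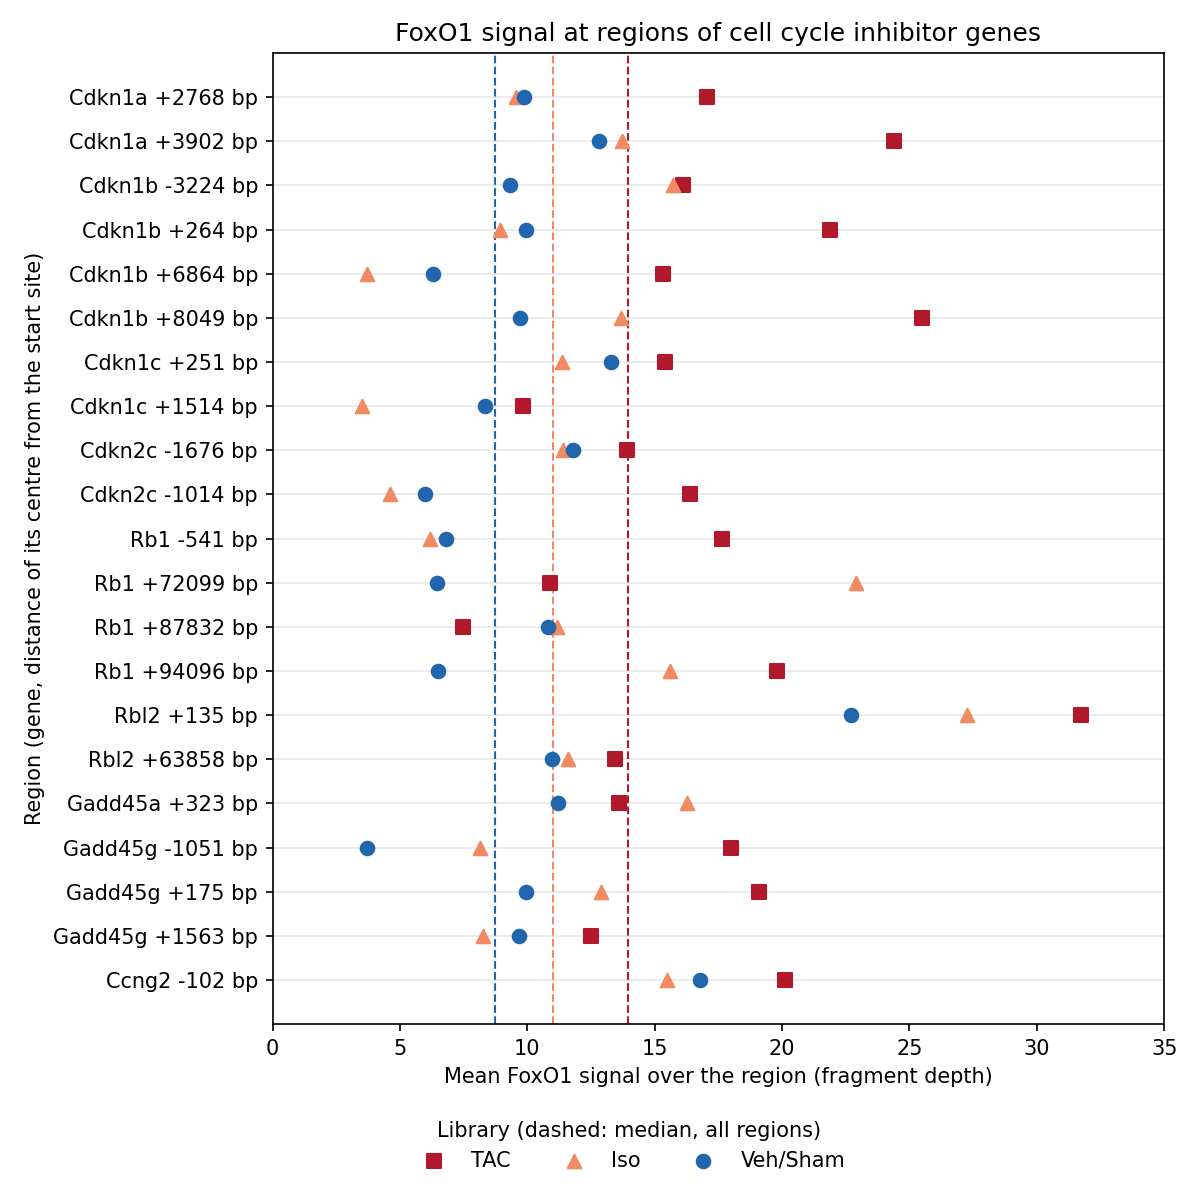
Mean FoxO1 signal over the region (fragment depth, horizontal axis) at each of the 21 regions (rows) in TAC (squares), Iso (triangles) and Veh/Sham (circles), 1 library each; dashed lines give the median of all 16126 regions per library. The Rbl2 start region is the farthest right in every library, and TAC is the highest of the 3 libraries at 18 of the 21 regions, against 63.1% of all regions.

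TAC was set against Veh/Sham to see where FoxO1 signal stood under pressure overload. Mean signal was at least 1.5-fold higher in TAC at 12 of the 21 regions and at least 1.5-fold lower at 0. The 1.5-fold rule is one of size and not a test. Over all regions, 50.3% were higher and 4.19% lower by the same rule, because the median ratio of all regions was itself 1.5-fold. The 12 were both Cdkn1a regions, all 4 of Cdkn1b, 3 of the 4 of Rb1, 2 of the 3 of Gadd45g and 1 of the 2 of Cdkn2c. Cdkn1c, Rbl2, Gadd45a and Ccng2 had none. The median log2 ratio of the 21 was 0.73, against 0.59 over all regions. Relative to that median, 5 regions were at least 1.5-fold higher (18.4% of all regions) and 1 at least 1.5-fold lower (17.0%). The 5 were the upstream Gadd45g region, the Rb1 promoter, the Rb1 region upstream of Lpar6, the Cdkn2c region after the start and the stronger Cdkn1b region beyond the gene. The 1 lower was the Rb1 region at the start of Lpar6. Peak-depth intervals lay above 1 at 6 of the 21 regions (20.8% of all regions). Low control signal went with high ratios, which share that value. Of the 7 regions below the Veh/Sham median, 6 were at least 1.5-fold higher in TAC, as were 71.2% of all such regions. Of the 14 at or above it, 6 were, against 29.4% of all such regions.

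Iso was set against Veh/Sham to see where FoxO1 signal stood under beta-adrenergic stimulation. By the same rule 4 of the 21 regions were higher in Iso (31.8% of all regions) and 2 lower (8.01%). The higher regions were 2 of Rb1 inside the gene, the upstream Gadd45g region and the upstream Cdkn1b region. The lower regions were that in Cdkn1c and the weaker Cdkn1b region beyond the gene, both called in none of the 3 libraries. Of the 9 regions within 1000 bp of any listed start site, 0 were at least 1.5-fold higher and 0 lower in mean signal, against 21.8% and 9.64% of all such regions. By peak depth, however, Gadd45a (2.12), the Gadd45g start (2.47) and the stronger Cdkn1b region beyond the gene (1.58) were above 1.5-fold. The share of all such regions by peak depth was not computed. The median log2 ratio of the 21 was 0.04, against 0.30 over all regions, and mean signal was below Veh/Sham at 10 of the 21, against 30.0% of all regions. Measured from the all-region median, 3 regions passed as higher (17.8%) and 3 as lower (16.1%). Peak-depth intervals lay above 1 at 3 regions (11.6% of all regions), those of Gadd45a, the Gadd45g start and Rb1 at 72099 bp. TAC and Iso were each compared with the same Veh/Sham library, so the 2 comparisons are not independent.

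**Figure D3:**
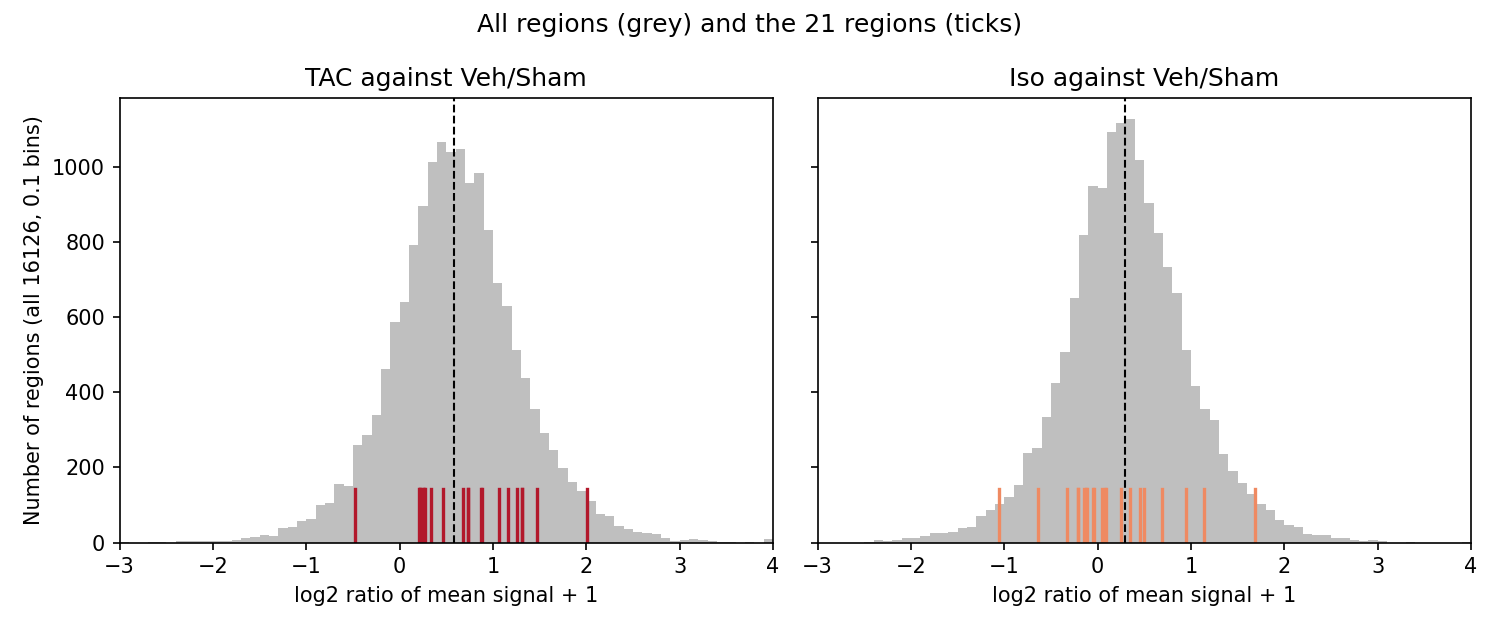
Number of regions (vertical axis, all 16126 in grey) by log2 ratio of mean signal with 1 added (horizontal axis, 0.1 bins) for TAC and for Iso against Veh/Sham, with coloured ticks for the 21 regions and a dashed line at the median of all regions. The ticks run from -0.48 to 2.01 in TAC and from -1.05 to 1.68 in Iso, within the spread of all regions.

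TAC was also compared with Iso directly, using the same 2 libraries as above. Mean signal was at least 1.5-fold higher in TAC at 9 of the 21 regions (31.4% of all regions) and at least 1.5-fold lower at 1 (8.86%), the Rb1 region at 72099 bp. The 9 were both Cdkn1a regions, 3 of Cdkn1b, the Rb1 promoter and 1 region each of Cdkn1c, Cdkn2c and Gadd45g. The median log2 ratio was 0.53, against 0.29 over all regions. Relative to that median, 6 were higher (17.0%) and 2 lower (17.4%). Low Iso signal went with high ratios, which share that value. Of the 8 regions below the Iso median of mean signal, 7 were at least 1.5-fold higher in TAC, as were 52.5% of all such regions. Of the 13 at or above it, 2 were, against 10.3% of all such regions. At the start sites, the TAC to Iso ratio of peak depths was 1.94 (1.05 to 3.72) for Cdkn1b and 2.90 (1.37 to 6.67) for the Rb1 promoter, a comparison of 2 libraries. Such intervals lay above 1 at 4 of the 21 regions, against 10.2% of all regions. Ccng2, Rbl2 and Gadd45a did not pass the rule, with log2 ratios of 0.36, 0.21 and -0.24, and their peak-ratio intervals held 1. The whole-table ratio of peak depths was 1.13, which the Cdkn1b interval holds, and intervals lay wholly above it at 3 of the 21 regions (5.79% of all regions) and below it at 1 (6.33%). The 3 were the Rb1 promoter, the Cdkn2c region after the start and the weaker Cdkn1b region beyond the gene.

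**Figure D4:**
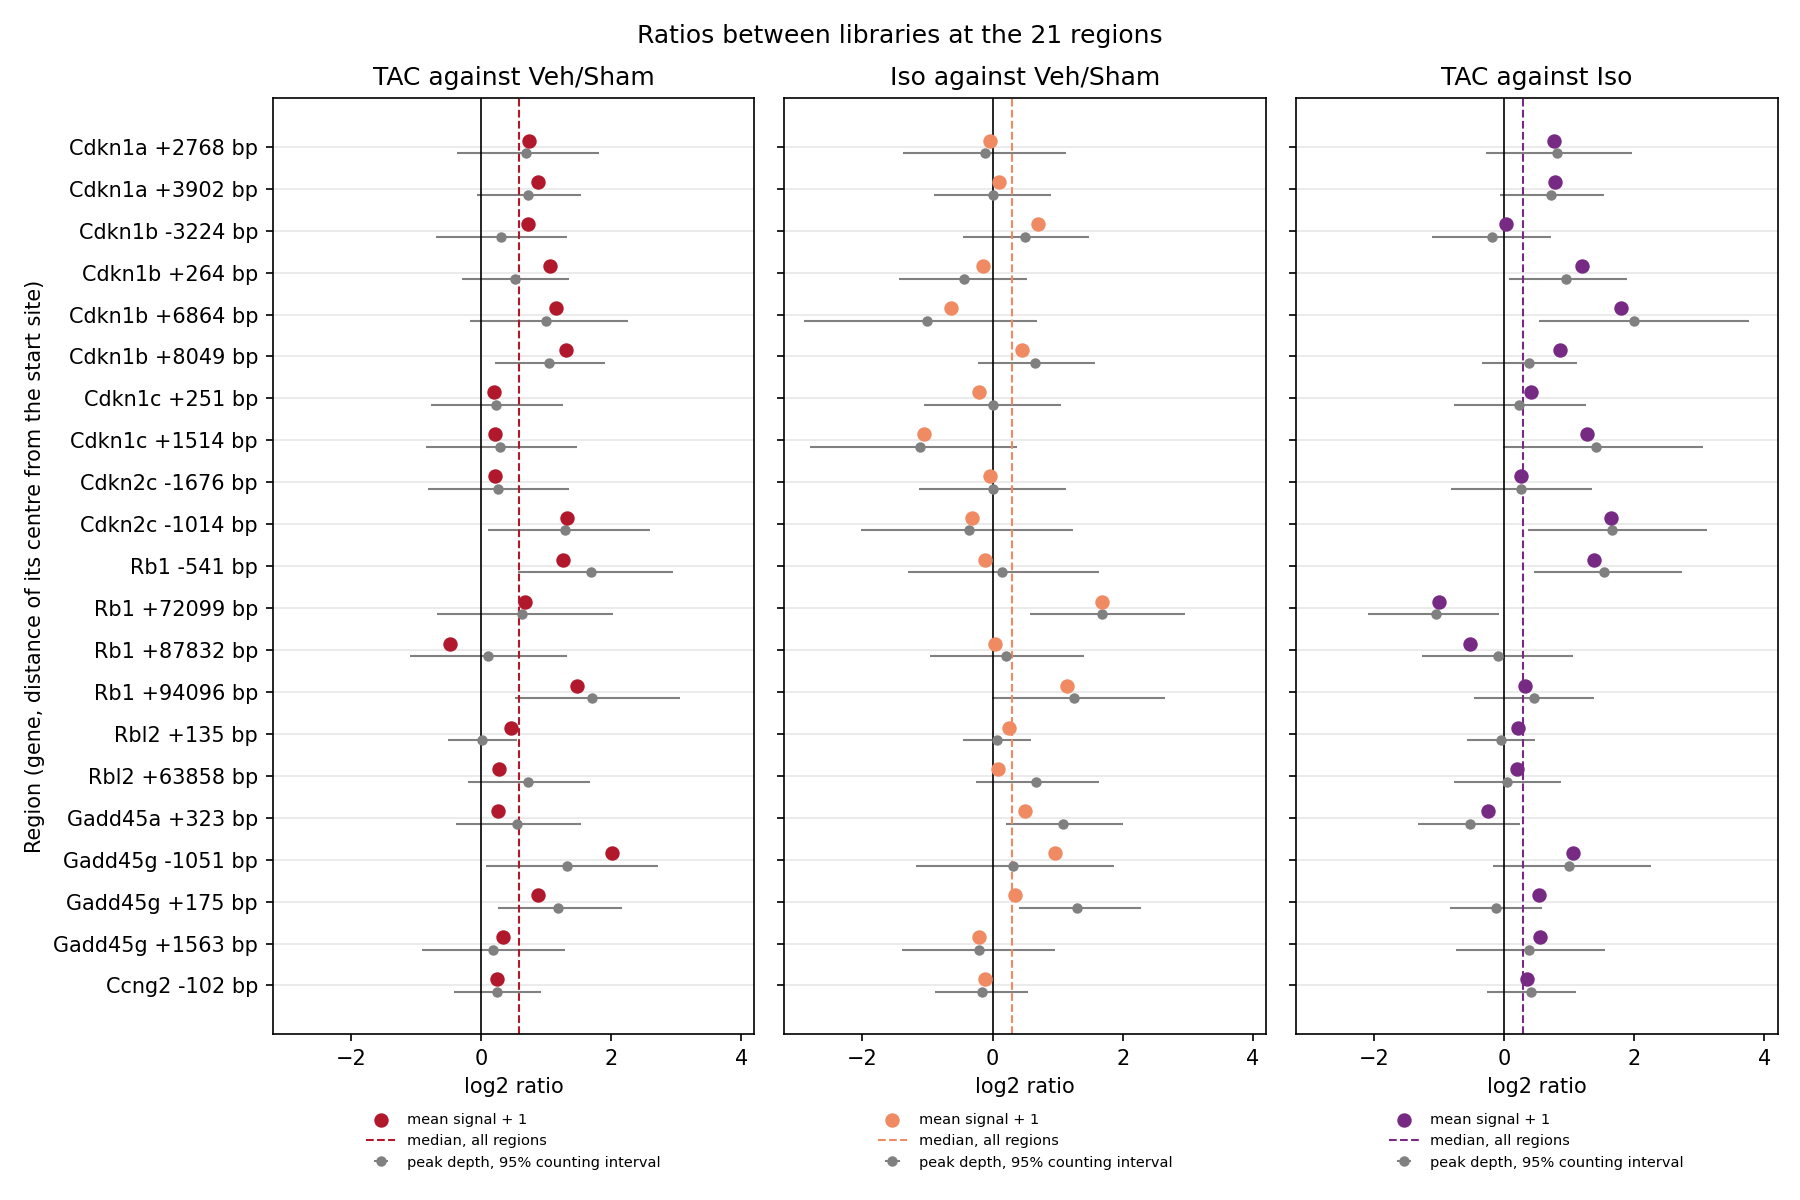
Log2 ratio (horizontal axis) at each of the 21 regions (rows) for TAC against Veh/Sham, Iso against Veh/Sham and TAC against Iso. Coloured points use mean signal with 1 added, grey points use peak depth with exact 95% counting intervals, and dashed lines mark the median of all regions at 0.59, 0.30 and 0.29.

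A list of 36 other cell cycle genes gives the surroundings of these 10. It holds cyclins, kinases, E2F and DREAM complex members, p53 partners and relatives of the 10. Of the 36, 32 had a region, against 44% of all RefSeq protein-coding symbols. Taking the strongest region of each, 16 of 32 were at least 1.5-fold higher in TAC than in Veh/Sham and 0 lower. Over all regions, which include weaker ones, the shares were 50.3% and 4.19%. The share higher was 71.2% of regions below the Veh/Sham median and 29.4% of those at or above it, so the sets are not alike. The median log2 ratio of the 32 was 0.57, against 0.59 over all regions. In Iso against Veh/Sham 7 were higher (31.8% of all regions) and 1 lower (8.01%), with a median of 0.27, against 0.30. In TAC against Iso 9 were higher (31.4% of all regions) and 1 lower (8.86%), with a median of 0.38, against 0.29. On the same basis, the strongest regions of the 9 member genes had medians of 0.47 for TAC against Veh/Sham, 0.25 for Iso against Veh/Sham and 0.36 between TAC and Iso. Measured from the all-region median, 3 of the 32 listed genes were at least 1.5-fold higher and 4 lower for TAC against Veh/Sham. The all-region shares were 18.4% and 17.0%. For Iso against Veh/Sham 3 were higher (17.8%) and 4 lower (16.1%), and between TAC and Iso 5 were higher (17.0%) and 4 lower (17.4%). Of the close relatives, Cdkn2b had no region. Cdkn2a, the INK4 and Arf locus, had a weak region that was called in none of the 3 libraries. It read 11.5 in TAC, 5.67 in Iso and 2.67 in Veh/Sham. Rbl1, the pocket protein p107, read 17.2 in TAC, 12.3 in Iso and 10.5 in Veh/Sham. Gadd45b read 16.8, 11.9 and 10.8 in the same order of libraries. Ccng1, the cyclin G2 relative that p53 controls, read 7.00 in TAC, 8.90 in Iso and 9.30 in Veh/Sham.

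The extremes of that list lay at other genes. Lin54, a DNA-binding subunit of the DREAM complex, had the highest log2 ratio in every comparison. Lin54 stood at 2.68 for TAC against Veh/Sham, 1.36 for Iso against Veh/Sham and 1.32 between TAC and Iso. Its Veh/Sham peak depth was 2, against 20 in TAC, a ratio of 10 (2.43 to 88.2). Next were Cdkn2a for TAC against Veh/Sham (1.77), E2f5 for Iso against Veh/Sham (1.01) and Myc for TAC against Iso (1.11). The lowest were E2f6 (-0.55) and Mxi1 (-0.51) for TAC against Veh/Sham, and Ccne2 (-0.71) and Myc (-0.37) for Iso against Veh/Sham. Between TAC and Iso they were Mxi1 (-0.65) and Ccne1 (-0.48). The regions of E2f5, E2f6 and Mxi1 lay 32669, 25391 and 18722 bp from the start sites of those genes. Those of E2f5 and Ccne2 were shared with 1810022K09Rik and Ints8.

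For each of the 9 genes, the gene with the most similar levels was sought by Euclidean distance of log2 mean signal with 1 added over the 3 libraries. Each gene was taken at its strongest region. The closest to Cdkn1a was Map3k3, at a distance of 0.016, with 24.3 in TAC, 13.6 in Iso and 12.8 in Veh/Sham. Rbl2 was closest to Megf6 (0.029) and Ccng2 to Pole4 (0.030). Cdkn1c was closest to Cacna1d (0.022), Cdkn2c to Cep170b (0.026), Gadd45a to Glo1 (0.042) and Gadd45g to Pik3r3 (0.046). Cdkn1b and Rb1 had the least close partners, Nfkb2 (0.080) and C1qtnf5 (0.089), but their strongest regions lay nearest to the start sites of 1190002F15Rik and Lpar6. With 3 libraries and so many genes, near matches of this kind are a description of levels only.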

How the data were processed

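FoxO1 ChIP-seq libraries of TAC, Iso and Veh/Sham hearts (1 each, from 3 pooled hearts) were used; an input library was not analysed here. The labels record a spike-in of Drosophila chromatin; how libraries were scaled is not stated in them. The submitters' processing notes name BWA, SICER and the mm10 build, without version or role. The authors deposited a table of merged regions with a mean signal (coverage), a peak signal and an interval call per library; coordinates and distances are as deposited. Peak signals, all whole numbers, were treated as depths. The 6 columns of 2 libraries that match no sample were not used, so calls in those libraries were not counted. Regions called in none of the 3 libraries used may have been called in them.

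Log2 ratios of mean signal used a pseudocount of 1, which understates ratios of low regions. The 1.5-fold rule was applied to all 16126 regions. Members, the list of 36 genes and the rules were chosen with earlier results of these data known. Every member region was named, with the 5 closest relatives, the 2 highest and 2 lowest of the list per comparison and the nearest gene by level. Promoters were RefSeq windows of GRCm38.p6, the assembly that mm10 names; RefSeq starts gave the deposited distance within 10 bp for 76.4% of 16202 gene and region pairs. Alternatives were peak depth, other pseudocounts, 2 rescalings, filters and a 2-fold rule. The functions were tested on simulated data. Tools were Python 3.11.15 with pandas 2.3.3, numpy 2.4.6, matplotlib 3.10.9 and scipy 1.17.1.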

Additional observations from a re-analysis of the deposited data

How the results depend on the processing

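No paired analysis was possible because each condition had 1 library. Recentring on the median of all regions moved the median log2 ratio of the 21 regions to 0.14 for TAC against Veh/Sham and -0.26 for Iso against Veh/Sham, and scaling by summed peak depth moved these to 0.25 and -0.27. For TAC against Veh/Sham, 12 regions at least 1.5-fold higher became 5 when recentred and 6 when scaled, and 0 lower became 1 in each. For TAC against Iso, 1 lower became 2 in each. Filters left fewer regions and so lower counts. With regions called in both libraries, 6 were higher for TAC against Veh/Sham, 1 for Iso against Veh/Sham and 3 between TAC and Iso. The strongest region per gene gave 4, 1 and 2 higher in that order, and regions within 1000 bp of the start gave 3, 0 and 2. The 1 region lower for TAC against Iso became 0 under these 3 filters. The 2 lower for Iso against Veh/Sham became 0 under the same filters, with calls in either library and when the 25% of regions lowest in signal were left out. They became 1 with a pseudocount of 5 and with only regions nearest to the member's own start, a setting chosen after seeing the data. A 2-fold rule gave 7 higher for TAC against Veh/Sham, and 2 higher and 1 lower for Iso against Veh/Sham. The other 73 of 105 alternative values of these counts and medians stayed close to the main value. For counts this meant within 1.5 times the count. For medians it meant within a margin on either side, set by the width of the median's interval. No log2 ratio of a named region past 1.5-fold changed sign in the alternatives run. Low depth also limits single regions: peak depths of the 21 went down to 5 fragments.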
